A study of Mus musculus with 2 samples.

Results

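DNA replication and mitosis genes were compared between kidney RNA of cystic and of control mice. The group holds 42 genes taken by name, and a gene counts where a probe set of the array names it and no other gene. All 42 were found among the 18193 genes so named on the array, through 100 probe sets. They divide by their textbook roles into 21 genes of the entry into S phase and of DNA replication, called G1/S and replication, and 21 genes of late cell cycle and mitosis, called G2/M.

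Total kidney RNA was measured on 2 Affymetrix arrays, 1 per group. The control, +/+,inv-deltaC::GFP, has normal alleles at the inv locus, and the cystic kidney, inv/inv, inv-deltaC::GFP, is homozygous for the inv mutation, a model of nephronophthisis type 2. Both carry the transgene inv-deltaC::GFP, an inversin that lacks its C-terminus and is tagged with green fluorescent protein, so each comparison is between kidneys that share it. The age was 4 weeks by the series design, and the cystic sample is labelled female and 28 days old, whereas the control label gives neither sex nor age. The series design speaks of 2 kidneys in each, and the sources used here do not say whether an array holds a pool of them, how many animals gave each RNA or which promoter drives the transgene. With 1 array per group there was no replicate check, no test was made, and no p-value is given.

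A cell that divides passes through G1, copies its DNA in S phase and separates the copies in mitosis. D-type cyclins with Cdk4 and Cdk6 start the passage, E-type cyclins with Cdk2 complete it, and the Mcm2-7 helicase, loaded on origins with the help of Cdc6, opens the DNA for copying. Cdk1 with cyclins A and B then drives mitosis, in which kinases, motors and checkpoint proteins align and separate the chromosomes. Transcripts of the S phase genes are controlled through E2F factors, and those of many mitotic genes through the CHR element and CCAAT boxes of their promoters. In the kidney, cells that divide are most common during growth and in repair after injury of the tubules.

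Values are linear MAS5 signals, and a log2 ratio is cystic minus control. The floor of an array was set at the median of its signals, which was 55.4 (control) and 61.9 (cystic). A probe set under both floors was treated as not measured and got no ratio, and a signal under 1 floor was raised to it, which makes the ratio a bound. A gene took its brightest probe set. All 5 kidney-defining markers with a probe set of their own, Slc34a1, Umod, Slc12a1, Slc12a3 and Aqp2, were above the floor on both arrays. RNA quality could be read from the control probe sets along a transcript. Those for the 3' and 5' ends of Actb had log2 ratios of 0.27 and 0.36, and those for the ends of Gapdh both had -0.19.

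Most replication and mitosis genes were modestly higher in the cystic kidney. Of the 42 genes, 39 were measured, 37 of them above the floor on both arrays. Bub1 and Kif11 passed through the cystic array alone at their brightest probe set, which fixes the sign of that ratio. Of the 37, 31 (83.8%) had a log2 ratio above 0, beside 56.8% of the 10668 genes so measured, and 6 were below 0. With Bub1 and Kif11 they were 33 of 39, beside 56% of all 12015 measured genes. Their median log2 ratio was 0.43, beside a median of 0.08 over those genes. Differences past 2-fold were rare. Cdk6 was the 1 member at least 2-fold higher (2.56% of 39, beside 7.06% of all genes), and none was at least 2-fold lower, beside 3.78% of all genes. With each array centred on its median, 0 members passed 2-fold, beside 5.07% of all genes upward and 5.59% downward. At a limit of 1.5-fold, 9 of the 37 were higher (24.3%), beside 15.4% of the 10668, and none was lower, beside 11.3%. With the bounds of Bub1 and Kif11 the count was 11 of 39, beside 16.4% of all measured genes. It depended on the scaling: over genes above both floors it was 5 of 37 with that centring (13.5%, beside 10.6% of such genes), 5 of 38 with quantile normalization (13.2%, beside 12%) and 6 of 38 with an intensity-dependent loess (15.8%, beside 12.8%). The members above the median of such genes numbered 30 of 37, beside 50% by construction, and 28 of 38 with both quantile normalization and loess.

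Median centring moved the median of all genes by -0.16 on the log2 scale. A set of 6 members changed sign in at least 1 of the 3 other scalings, all with a log2 ratio of at most 0.16, namely Pcna, Ccnb2, Plk1, Mad2l1, Prc1 and Nusap1. The other members kept their sign in all 3, with 27 above, Bub1 and Kif11 included, and 6 below 0. The size of Kif11 was not kept, with 0.78 with median centring, 0.30 with quantile normalization and 0.37 with loess. With quantile normalization and loess a different Kif11 probe set became the brightest, the one that gave 0.48 on the deposited scale. These values thus do not follow 1 probe set through the scalings. As the only repeat measurement, log2 ratios at different probe sets of 1 gene had a pooled SD of 0.29 over 4694 genes, and likewise of 0.29 over the 18 members that allow it. These readings come from the same RNA, and probe sets of 1 gene can read different transcripts, so the spread leaves out any difference between animals.

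**Figure D1:**
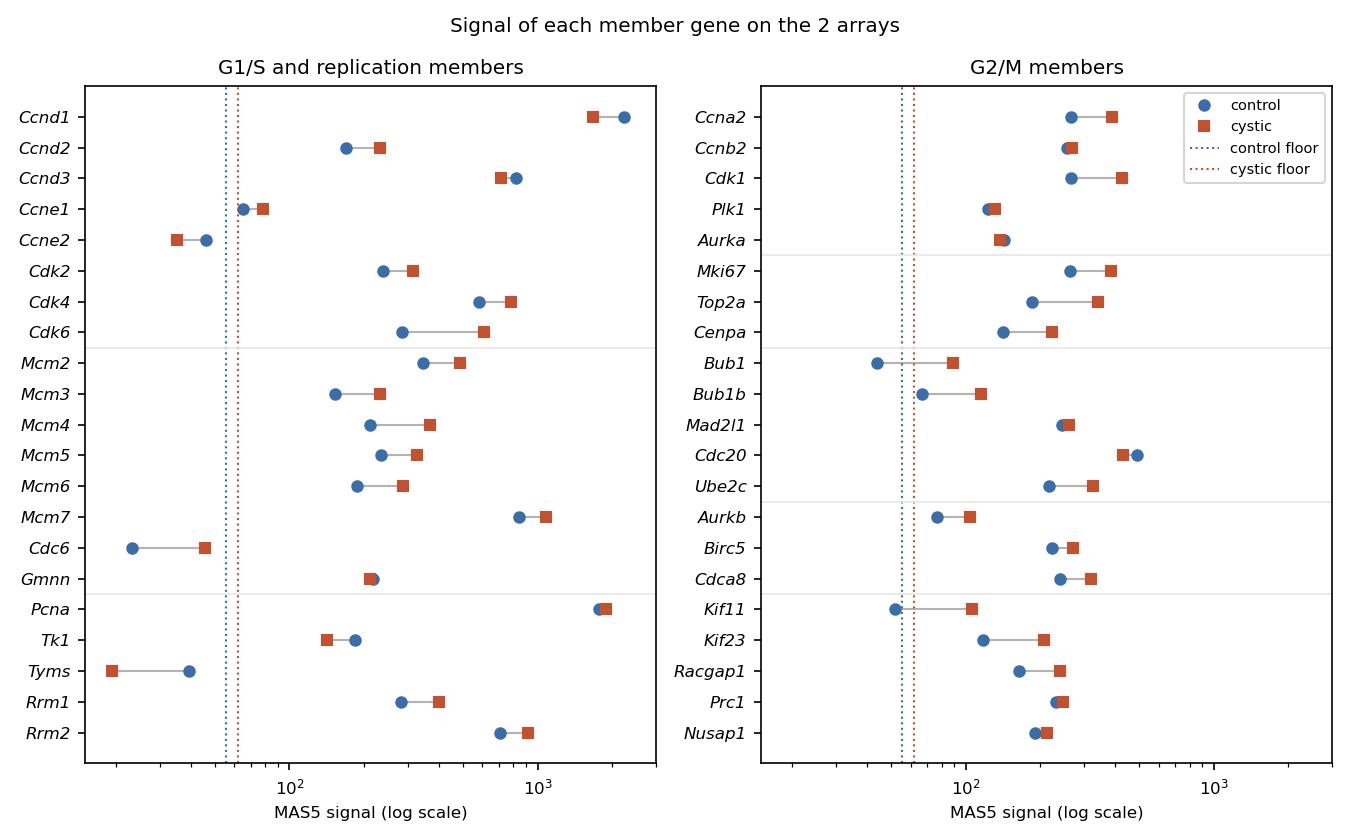
MAS5 signal (log axis) of each member's brightest probe set on the control array (circles) and the cystic array (squares), by class, with both floors as dotted lines. Cdk6 shows the widest gap of the G1/S and replication members that are above the floors, 284.7 to 608.7, and Ccne2, Cdc6 and Tyms lie under both floors.

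Promoters are shown for the members of each class with the largest log2 ratios among those in the promoter table, to show the sequence elements known for each class. The windows run from 250 bases before to 50 after the annotated start, 5' to 3' on the strand of the gene, and come from RefSeq on GRCm38.p6. Capitals mark 3 motifs found on either strand: an E2F site (TTNNCGC, where each N is a C or a G), a CHR element, which reads TTTGAA or in its other form TTCGAA, and the box that is named for its letters, CCAAT. Cdk6 lies at chr5:3343643-3343942 on the plus strand, Mcm6 at chr1:128359656-128359955 on the minus strand, Kif11 at chr19:37376132-37376431 on the plus strand and Top2a at chr11:99024140-99024439 on the minus strand.
Cdk6: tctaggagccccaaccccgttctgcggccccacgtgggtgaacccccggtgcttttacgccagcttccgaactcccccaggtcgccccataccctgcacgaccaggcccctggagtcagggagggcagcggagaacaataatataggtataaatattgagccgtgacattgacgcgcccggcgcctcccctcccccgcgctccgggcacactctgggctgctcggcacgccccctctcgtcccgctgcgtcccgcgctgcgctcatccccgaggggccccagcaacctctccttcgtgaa
Mcm6: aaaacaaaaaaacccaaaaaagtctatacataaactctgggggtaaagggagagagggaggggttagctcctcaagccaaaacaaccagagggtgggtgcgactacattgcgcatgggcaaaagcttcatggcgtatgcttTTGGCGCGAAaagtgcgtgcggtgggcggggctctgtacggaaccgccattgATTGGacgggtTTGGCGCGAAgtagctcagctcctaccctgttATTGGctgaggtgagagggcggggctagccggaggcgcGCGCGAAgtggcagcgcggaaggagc
Kif11: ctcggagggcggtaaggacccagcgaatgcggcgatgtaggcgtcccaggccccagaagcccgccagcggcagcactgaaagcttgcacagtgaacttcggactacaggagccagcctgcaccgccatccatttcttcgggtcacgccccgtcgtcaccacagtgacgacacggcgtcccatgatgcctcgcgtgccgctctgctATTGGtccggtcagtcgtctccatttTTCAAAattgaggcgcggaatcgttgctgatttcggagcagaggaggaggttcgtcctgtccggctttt
Top2a: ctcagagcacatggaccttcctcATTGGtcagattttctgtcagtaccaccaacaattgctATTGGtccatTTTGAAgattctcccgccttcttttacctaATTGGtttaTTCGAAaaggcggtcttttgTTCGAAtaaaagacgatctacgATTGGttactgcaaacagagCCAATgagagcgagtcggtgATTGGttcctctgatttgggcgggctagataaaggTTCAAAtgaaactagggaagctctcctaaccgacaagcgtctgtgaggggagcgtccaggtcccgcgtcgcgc

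The Mcm6 window held 5 E2F matches and 2 CCAAT boxes. Matches in opposite directions overlap there, at bases 142 to 151 and again at 205 to 214 of the window, and the last stands at 275 to 281. The Top2a window held 4 CHR elements and 6 CCAAT boxes, and the Kif11 window 1 CHR element at bases 232 to 237 and 1 CCAAT box at 206 to 210. In the Cdk6 window these letters were not found.

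Promoters were found for 35 members, with 38 windows. E2F letters were in 8 of 16 G1/S and replication genes (50%) and in 2 of 19 G2/M genes (10.5%), beside 10.9% of all 27025 genes of the promoter table. CHR letters were in 2 of 16 (12.5%) and 16 of 19 (84.2%), beside 21.7% of all genes. CCAAT was in 10 of 16 (62.5%) and 16 of 19 (84.2%), beside 41.1%. The CHR element and the CCAAT box were both found in 16 of 19 G2/M genes, taken over all windows of a gene, and in 9.65% of all genes. The 3 G2/M genes with none of the motifs were Birc5, Mad2l1 and Nusap1. Such elements are known at many cell cycle genes, so the counts describe the classes and are no result of the arrays, which measured no promoter.

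Among the genes of G1 and the entry into S phase, the D-type cyclins and their kinases went different ways. Cdk6, a kinase partner of the D-type cyclins, read 284.7 in control and 608.7 in cystic RNA, a 2.14-fold difference with a log2 ratio of 1.10. A separate Cdk6 probe set read 243.5 and 525.7, with a log2 ratio of 1.11. The Cdk6 readings thus differed from each other by far less than the SD between probe sets, and both passed 2-fold. With median centring Cdk6 had 0.94, under the limit, and with quantile normalization and loess 1.04 and 1.05. Cdk4, the other D-type cyclin kinase, went from 581.6 to 781.8, a log2 ratio of 0.43, and its other probe sets gave 0.47 and 0.32.

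Cyclin D1, Ccnd1, was the lowest member. Its signal was 2227 in control and 1676 in cystic RNA, a log2 ratio of -0.41, with -0.18 and -0.14 at its other probe sets. Cyclin D3, Ccnd3, went from 819.9 to 714.7, a log2 ratio of -0.20, at its only measured probe set. Both D-type cyclins were below 0 in each scaling, by a range of -0.24 to -0.57 for Ccnd1 and -0.17 to -0.36 for Ccnd3. Cyclin D2, Ccnd2, was higher at its brightest probe set, with 168.6 and 232.4 and a log2 ratio of 0.46. Its probe sets covered a wider range than those of any other member that was above the floor at several of them. They ran from -0.05 (82.7 to 79.9) to 1.16 (122.6 to 273.5), with 0.68 at another and a bound of 0.67 at the last. By the SD of such readings, 0.50 for Ccnd2, Top2a (0.76) and Prc1 (0.53) spread more, each over 2 probe sets. Ccnd2 was above 0 at 3 of its 4 probe sets that passed the floor on both arrays, and its size was not settled by them.

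The E-type cyclins, which activate Cdk2, were near or under the floor. Ccne1 went from 65.2 to 78.2, a log2 ratio of 0.26, and Ccne2 read 46.0 and 35.1, under both floors. Cdk2 itself had 237.6 and 314.6, a log2 ratio of 0.40.

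The 6 subunits of the Mcm2-7 helicase were all higher, and they stayed above 0 in each of the 3 other scalings. Their log2 ratios ran from 0.36 to 0.80, with a median of 0.55, a 1.46-fold higher signal. Mcm4 led with 211.7 in control and 368.6 in cystic RNA, a log2 ratio of 0.80, and a second probe set at 0.81. Mcm6 went from 187.1 to 287.6, a log2 ratio of 0.62, and Mcm3 from 152.8 to 232.2, with 0.60. All 3 passed 1.5-fold. Mcm2 went from 347.0 to 486.3 and Mcm5 from 234.2 to 328.0, each with a log2 ratio of 0.49.

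The second probe sets of the helicase genes were lower in most cases. Mcm7, the brightest of its probe sets at 843.8 and 1081, had a log2 ratio of 0.36, and its other probe sets lay between 0.29 and 0.48. The second readings were 0.46 for Mcm6, 0.35 for Mcm3, 0.33 for Mcm2 and 0.09 for Mcm5. A further Mcm3 probe set gave a bound of 1.42, from a control signal of 50.4 under the floor to 148.4. No probe set that measured a helicase subunit was below 0 on the deposited scale.

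Of the regulators of origin licensing, 1 differed little and 1 was not measured. Geminin, Gmnn, which blocks licensing by binding Cdt1, read 216.2 and 210.6, a log2 ratio of -0.04. Cdc6, a helicase loader, was not measured, with 23.2 and 45.8.

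Genes of nucleotide supply and DNA synthesis were mixed. The ribonucleotide reductase subunits, which make deoxynucleotides, were both higher: Rrm1 went from 282.0 to 401.3, a log2 ratio of 0.51 with 0.85 at a second probe set, and Rrm2 from 703.6 to 914.4, with 0.38 and 0.27. Thymidine kinase, Tk1, which salvages thymidine, was lower, with 183.0 and 141.7 and a log2 ratio of -0.37 at its single probe set. The sliding clamp Pcna, which holds the polymerase on DNA, was bright on both arrays, 1774 and 1890, with a log2 ratio of 0.09 that was -0.07 with median centring. Thymidylate synthase, Tyms, was not measured at any of its 4 own probe sets. A probe set shared by Tyms and its pseudogene Tyms-ps, left out by the rule, read 280.9 and 252.4, a log2 ratio of -0.15, and it cannot be told which of them it measured.

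**Figure D2:**
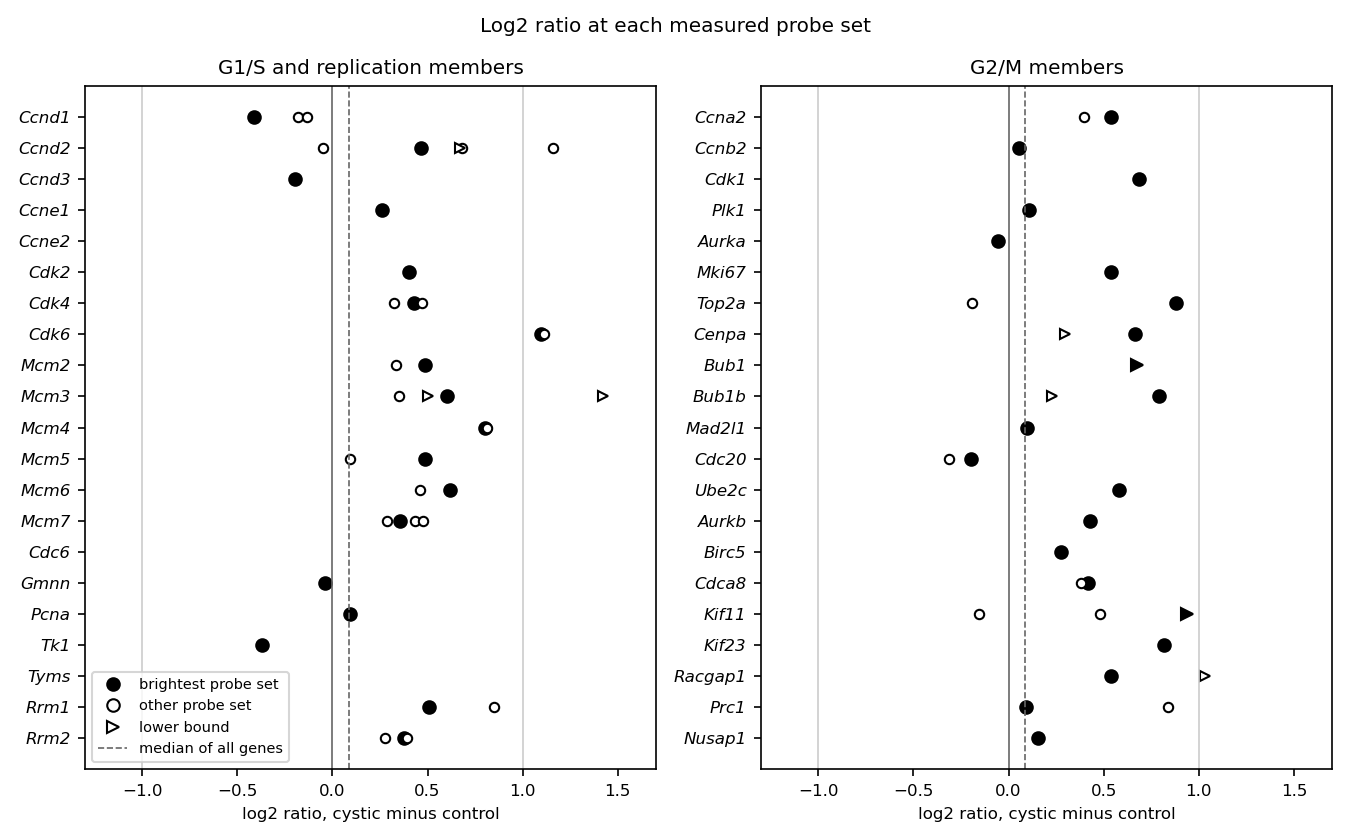
Log2 ratio, cystic minus control, at each measured probe set of each member; filled symbols are the brightest probe set, open symbols the others, and triangles are lower bounds. Of the 63 member probe sets above the floor on both arrays, 51 lie above 0 and 12 below on the deposited scale. Some genes hold several of these probe sets. Counted by gene, 56.8% of all genes above both floors lie above 0. The dashed line is the median of all genes, 0.09.

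Among the G2/M genes, Cdk1, the kinase that drives mitosis, went from 265.8 to 427.3, a log2 ratio of 0.68. Its partner cyclin A2, Ccna2, went from 267.2 to 387.7, with 0.54 and 0.40 at a second probe set. Cyclin B2, Ccnb2, read 257.2 and 267.5, a log2 ratio of 0.06, which was below 0 in the 3 other scalings. The kinases of the centrosome and spindle differed by less than the SD between probe sets. Plk1 had 122.6 and 132.0, a log2 ratio of 0.11 that was below 0 in the other scalings, and Aurka 143.1 and 137.5, with -0.06.

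Mki67, Top2a and Cenpa, grouped here as genes of chromosomes and proliferation, were higher at their brightest probe sets. Other genes tied to proliferation were not, as Pcna had 0.09 and Tk1 -0.37. Mki67, which encodes the Ki-67 antigen, went from 264.0 to 383.9, a log2 ratio of 0.54. Top2a, the topoisomerase that untangles chromosomes, went from 185.8 to 342.3, with 0.88. A dimmer Top2a probe set near the floor gave 74.8 and 65.5, a log2 ratio of -0.19, the opposite sign. Cenpa, the histone variant of the centromere, went from 141.0 to 223.7, with 0.67 and a bound of 0.30 at a dimmer probe set.

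The spindle checkpoint kinases were higher at low signals. Bub1b went from 66.5 to 115.2, a log2 ratio of 0.79, which was 0.39 with the floor at the 60th percentile. A dimmer Bub1b probe set gave a bound of 0.23, from 4.9, under the control floor, to 64.9. Bub1 went from 43.8, also under the control floor, to 88.6, which makes it at least 1.60-fold higher. Mad2l1, which binds and inhibits Cdc20, read 243.7 and 260.3, with 0.10 that was below 0 in the other scalings. The anaphase-promoting complex had partners on both sides. Its activator Cdc20 was lower, 493.0 to 430.2, with a log2 ratio of -0.20 and -0.31 at its second probe set. Its ubiquitin-conjugating enzyme Ube2c was higher, 217.8 to 325.5, with 0.58.

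The chromosomal passenger complex, which corrects chromosome attachment and triggers cytokinesis, had 3 of its genes in the G2/M class, with log2 ratios between 0.28 and 0.43. Aurkb, its kinase, went from 77.0 to 103.7, Cdca8 from 239.2 to 319.8 and Birc5, or survivin, from 223.7 to 271.0. All 3 were above 0 in each scaling, and none of the 3 passed 1.5-fold. Incenp, the scaffold of the complex, came from the list of other mitosis genes and is named after its values were seen: it went from 110.8 to 214.7, with 0.95 and 0.65 at a second probe set.

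Genes of the spindle and of cytokinesis were above 0 in 4 of the 4 that passed the floor on both arrays on the deposited scale, and Prc1 and Nusap1 turned below 0 with median centring. Kif23, the motor of the central spindle, went from 117.6 to 207.5, a log2 ratio of 0.82. Its partner Racgap1 went from 164.7 to 239.4, with 0.54, and a dimmer probe set gave a bound of 1.03. Prc1, which bundles the microtubules of the central spindle, gave 0.09 at its brightest probe set (232.2 to 247.3) and 0.84 at another (59.6 to 106.7). Kif11, the motor that separates the spindle poles, had a bound of 0.94 from 52.1, under the control floor, to 106.2. Its other probe sets gave 0.48 and -0.15, so its direction differed between probe sets. Nusap1, a microtubule-binding protein, read 190.5 and 212.3, with 0.16.

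The G2/M genes and the G1/S and replication genes overlapped in their ratios. The median log2 ratio was 0.42 over 18 measured G1/S and replication genes, all above both floors, with 14 above 0 (77.8%). It was 0.54 over 21 G2/M genes, with 19 above 0, a count that includes Bub1 and Kif11, whose sign was fixed. Over the 19 G2/M genes above the floor on both arrays it was 0.43, with 17 above 0 (89.5%). The share above 0 over all genes above both floors was 56.8%. The difference of the medians was -0.12 (G1/S and replication minus G2/M), and -0.01 over members above the floor on both arrays. Its sign turned with the processing, to 0.09 with quantile normalization, 0.04 with loess and 0.09 with the floor at the 60th percentile. In each class the ratios ran from below 0 to near 1, from -0.41 to 1.10 in G1/S and replication and from -0.20 to 0.94 in G2/M. Members past 1.5-fold numbered 4 of 18 in the first class and 5 of 19 in the other over genes above the floor on both arrays, counts that carry the dependence on scaling given above.

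**Figure D3:**
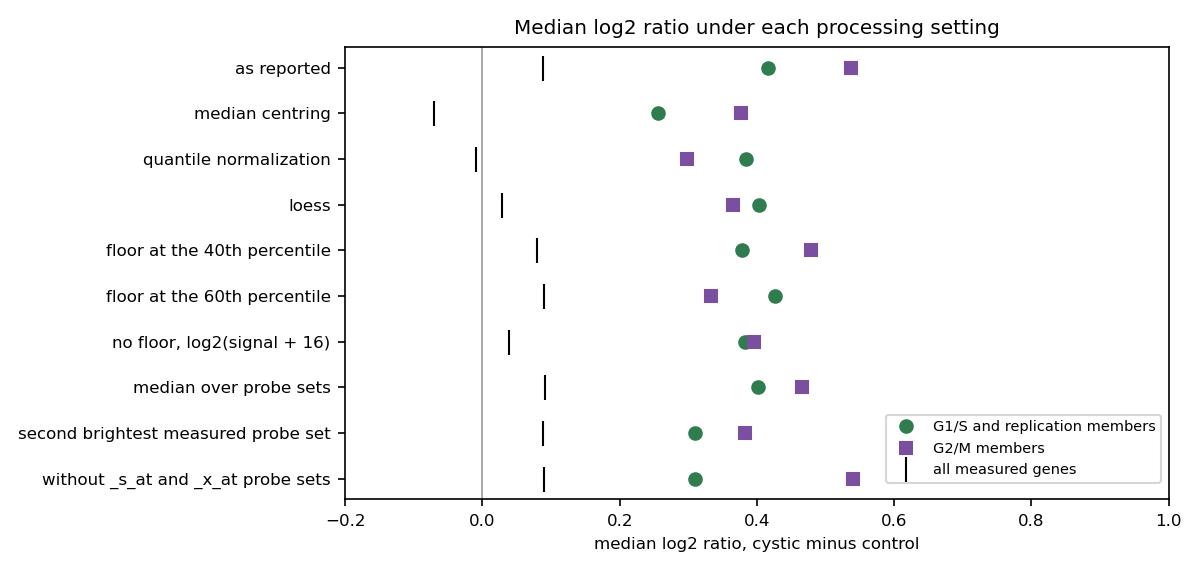
Median log2 ratio, cystic minus control, of the G1/S and replication members (circles), the G2/M members (squares) and all measured genes (bars) under each processing setting. Both class medians lie above that of all genes in each setting, and which class is higher changes between settings.

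In 18 members at least 2 probe sets were above the floor on both arrays. In 16 of them (88.9%) the brightest pair of such probe sets had the same sign. The share over the 4694 genes of the array with such a pair was 75.8%. The median distance between the readings of a member was 0.16, and 14 of the 18 pairs lay within 2 SD. The pairs farther apart were those of Ccnd2, Kif11, Prc1 and Top2a, and those of Kif11 and Top2a had opposite signs. The Kif11 pair leaves out its brightest probe set, which was under the control floor and gave a bound of 0.94.

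Other genes of the cell cycle came from lists that hold no member. Of 98 measured, 68 were above 0 (69.4%, beside 56% of all measured genes) and 28 below. Of the 98, 88 were above the floor on both arrays, and passing through the cystic array alone fixes a ratio above 0. The median log2 ratio of the 98 was 0.21. Like each list median below, it was lower by the shift of -0.16 with median centring. At least 2-fold differences were all upward, in 7 genes (7.14%), beside 7.06% of all genes in that direction. With each of the 3 other scalings there were 5, since Cdc25b and Ncapd2 fell under the limit. The other replication genes had a median of 0.21 over 34 measured, near the values of Gins3 (0.21) and Rfc4 (0.21), and Fen1 (0.22), the flap endonuclease of lagging-strand synthesis. Uhrf1, which recruits the maintenance DNA methyltransferase, was the 1 past 2-fold, from 90.0 to 229.4, a log2 ratio of 1.35 with 0.96 as a bound at a second probe set.

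Other mitosis genes had a median of 0.34 over 36 measured, near Spc24 (0.30), a kinetochore subunit, Ncaph (0.38), of condensin, and Aspm (0.25), of the spindle pole. Of the 36, 26 were above 0 (72.2%, beside 56% of all measured genes) and 10 below, the lowest being Kif20b with -0.75 (135.8 to 81.0). Above the floor on both arrays were 31. The list had 4 genes past 2-fold (11.1%), and 2 in each of the other scalings (5.56%, beside 5.07% of all genes with median centring). Cks1b, a CDK-binding subunit that also serves the breakdown of p27, went from 336.3 to 816.6, with 1.28 and 1.32 at a second probe set. Anln, an actin-binding protein of the cleavage furrow, went from 109.6 to 258.4, a log2 ratio of 1.24. Cdc25b, a phosphatase that activates CDKs, and Ncapd2, of condensin, each had 1.05, from 105.1 to 217.9 and from 56.6 to 117.3.

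The list of E2F factors, Foxm1 and their partners had a median of 0.03 over 12 measured, with none past 2-fold. Foxm1, the activator of mitotic genes, read 241.6 and 245.4, a log2 ratio of 0.02, E2f4, which acts with the Rb family, 159.0 and 162.9, with 0.03, and Lin54, the CHR-binding subunit of the DREAM complex, 94.4 and 95.5, with 0.02. The range of the list, looked up after its values were seen, was from -0.31 for Lin52, another DREAM subunit (123.3 to 99.3), to 0.69 for E2f3, an activator of S phase genes (92.9 to 149.7, with 0.09 at a second probe set). The list of genes of the DNA damage checkpoint had a median of 0.18 over 7 measured, that of Brca2, with Chek2 (0.28) and Brca1 (0.05) nearest to it, and none was past 2-fold. Its median was -0.02 with quantile normalization.

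A pair of CDK inhibitors were among the 7 genes past 2-fold. Cdkn1a, or p21, which inhibits CDKs and is a target of p53, went from 236.8 to 569.7, a log2 ratio of 1.27 with a bound of 1.11 at a second probe set. Cdkn2b, or p15, an inhibitor of Cdk4 and Cdk6, went from 11.6, under the control floor, to 139.9, at least 2.53-fold higher. The list of CDK inhibitors and Rb proteins as a whole had a median of -0.03 over 9 measured, near Rb1 (-0.03), Cdkn1b (-0.17) and Rbl2 (-0.19, and 0.10 at a second probe set). No gene of it was 2-fold lower.

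**Figure D4:**
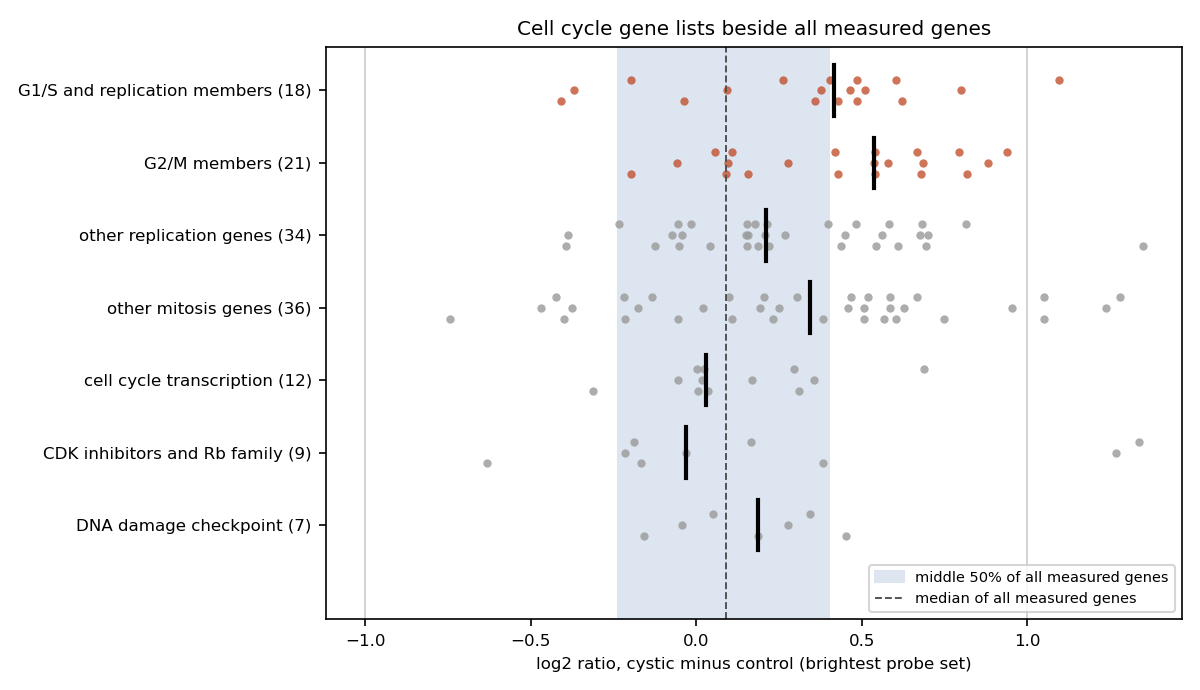
Log2 ratio, cystic minus control, of each measured gene (points) in the member classes and in the other cell cycle lists, with list medians as black bars and the number measured in brackets. The shaded band is the middle 50% of all measured genes. The medians run from 0.54 for G2/M members, with the bounds of Bub1 and Kif11 included, to -0.03 for CDK inhibitors and the Rb family.

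Markers of some cell types also differed between the arrays, in both directions. Of 12 macrophage markers 10 were past 2-fold upward, beside 7.06% of all genes, with a median log2 ratio of 2.14. Only 9 of the 12 were above the floor on both arrays. Cd68, Itgam and Fcgr1 passed through the cystic array alone, which fixes their sign, and the median takes in their bounds. The signals of the 12 summed to 2255 (control) and 10715 (cystic). All 10 fibroblast markers were past 2-fold upward too, each above both floors, with a median of 1.93 and summed signals of 6692 and 27947. Proximal tubule markers were lower, 7 of 10 by at least 2-fold, beside 3.78% of all genes, with a median of -1.19 and summed signals of 54319 and 28781. Of 7 lymphocyte markers with a probe set, 6 were under both floors and Cd8a was above the control floor, and summed signals were 230.0 and 144.4. All 3 erythroid precursor markers with a probe set were under both floors, with summed signals of 29.8 and 79.0. In whole kidney RNA, more cells of a type and more RNA per cell cannot be told apart, so the arrays do not show which cells carried the replication and mitosis transcripts. The part of these cell types in the differences was not tested.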

How the data were processed

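The authors deposited an intensity per probe set, on a linear scale, made with MAS5 per the submitters' processing notes, which name no version, scaling target or detection call. That scaling was kept: 2% trimmed means were 178 and 181. Of 45101 probe sets, 64 control probe sets were left out. Gene names are those of GEO's platform annotation, updated by gene ID from RefSeq (GRCm38.p6), and 34945 probe sets named 1 gene.

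Floors were each array's median. The brightest probe set was that with the highest mean log2 signal after the floor. Of 18193 genes, 12015 were measured, 10668 on both arrays; for 216, both readings lay under the cystic floor, so a ratio above 0 shows no rise and was not counted as above 0. Groups came from the sample titles. No test was possible. The number of arrays limits the precision. All members were named, with other cell cycle genes past 2-fold and up to 3 nearest each list's median. Members and lists were chosen with earlier results of these data known. Alternatives were the scaling, floor, probe set and fold limit. Python 3.11.15, pandas 2.3.3 and statsmodels 0.14.6 (loess) were used.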

Additional observations from a re-analysis of the deposited data

How the results depend on the processing

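The count of members at least 2-fold higher, 1 as reported, was 0 with median centring, 2 with the floor at the 40th percentile, where Bub1 joined Cdk6, 3 with the second brightest probe set (Ccnd2, Cdk6 and Racgap1) and 11 at a limit of 1.5-fold. The count at 1.5-fold, 11 as reported, was 6 with median centring, 5 with quantile normalization, 7 with loess and 8 to 11 in the other settings, and the members above 0 numbered 27 to 34; both counts were followed through the settings after seeing the data. Without the bounds of Bub1 and Kif11 they were 9 and 31 of 37. No member was 2-fold lower in any setting run. The median over members lay between 0.27 and 0.43 in all settings, and by at least 0.24 above that of all genes. Of 347 values of single members under the alternatives, 21 moved by at least the SD between probe sets, mostly those of Kif11, Prc1 and Top2a. The settings for the probe set change which reading a gene takes. The value of Kif11 also came from another probe set with the floor at the 40th percentile, 0.48. Why probe sets of 1 gene differ was not tested. Many of the 347 could not move so far. Median centring shifted each ratio by -0.16, less than that SD. A member without a second measured probe set kept its value where the second was used. No replicate could be left out. No paired analysis was possible because each group has 1 array. Signals near the floor, as for Bub1, Bub1b, Kif11 and Ccne1, limit the size of their ratios.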
